A study of Mus musculus with 4 samples.

Results

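The esophagus primordium and the stomach primordium of the mouse were set against each other at embryonic day E11.5, with 1 expression array for each organ. Of 13756 genes with a probe clearly brighter than background (flagged as well above it by the scanner software) on 1 or both arrays, 1365 (9.92%) differed by 2-fold or more: 783 (5.69%) were higher on the esophagus array and 582 (4.23%) were higher on the stomach array. These 1365 genes were chosen by the size of the difference between the 2 arrays. Because 1 array of each organ was analysed, the differences are given as sizes, with no test between samples.

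Both samples were total RNA of ICR embryos, an outbred laboratory stock, and the labels name no mutation and no drug for either. Title and tissue label name the organ, and in them the stomach is spelled "gustric". The extraction text, which is the same for all 4 samples of the series, speaks of stomach throughout, so it does not describe how the esophagus was cut out. The labels give neither the number of embryos behind each sample nor their sex, and the RNA was amplified with a low-input labelling kit and read in 1 colour (Cy3). The lung and intestine arrays of the series were not used here.

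The esophagus and the anterior stomach come from neighbouring stretches of the foregut. The transcription factor Sox2 is needed in the endoderm of both, Nkx2-1 marks the ventral foregut that becomes trachea and lung, and Trp63 marks the basal cells of the future stratified esophageal lining. In the stomach the surrounding mesenchyme expresses Barx1, which limits Wnt signalling in the adjacent endoderm, and nested Hox expression gives the gut tube positional identity along its length. Neural crest cells colonise the gut wall as the forerunners of the enteric neurons, while the esophagus lies beside the trachea, the pharynx and the heart, and the stomach beside the spleen, the pancreas, the liver and the duodenum.

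A gene's level is the log2 of its probe's background-subtracted signal minus the log2 of the array's 75th percentile, so a level of 0 means a probe as bright as that percentile, and a difference of 1 is 2-fold. Levels of different genes come from different probes and are not ranked against each other. A pair of levels joined by "against" gives the esophagus array before the stomach array. The 75th percentile was a signal of 379 on the esophagus array and 320.1 on the stomach array, and 69.3% and 67.9% of the non-control spots were well above background. If a gene failed that background criterion on 1 array, the fold is a lower bound, set from the array's lowest level well above background (-5.75 for esophagus and -5.77 for stomach) or from the gene's own level if that was higher, and is written as "at least". Such bounds make up 175 of the 783 and 151 of the 582 genes. The only errors that can be measured are within an array and between probes: copies of a probe had a median SD of 0.09 in log2 on the esophagus array and 0.08 on the stomach array, and the differences given by 2 probes of a gene differed with an SD of 0.57 over 4889 genes.

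Most differences were moderate. Of the genes higher on the esophagus array 565 lay between 2-fold and 4-fold, 139 between 4-fold and 8-fold, 42 between 8-fold and 16-fold and 37 at 16-fold or more; on the stomach side these counts were 487, 58, 26 and 11. At 4-fold, 218 genes (1.58%) were higher on the esophagus array and 95 (0.691%) on the stomach array. The median fold was 2.81 among the esophagus genes and 2.48 among the stomach genes. Across all genes the 2 arrays were alike, with a Pearson correlation of 0.961 over genes, which are not independent replicates, and a median difference of -0.15, slightly to the stomach side. The split of 783 to 582 depends on how the arrays are scaled: centring on the median gave 573 and 962, and quantile normalization gave 676 and 790. Another background correction (normexp) gave 276 and 166 genes at 2-fold, and it changed the size of most of the largest folds.

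**Figure D1:**
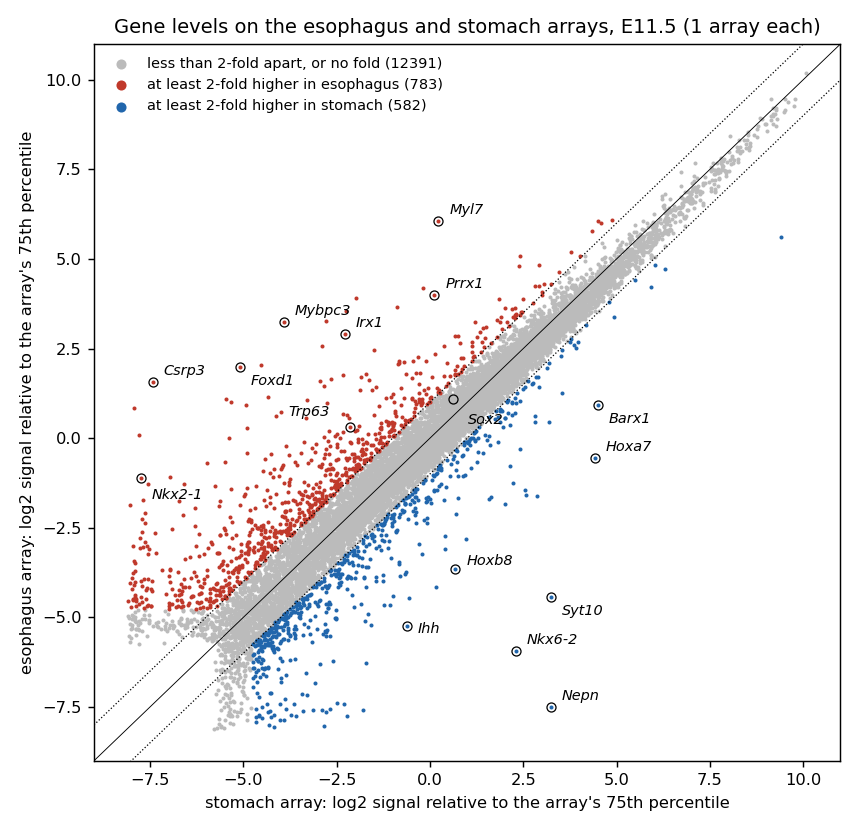
Level of each of 13756 genes on the stomach array (x axis) and the esophagus array (y axis), as log2 signal over the array's 75th percentile; a point is a gene at the level of its brightest probe, the solid line marks equal levels and the dotted lines a 2-fold difference. The 783 red points are at least 2-fold higher on the esophagus array and the 582 blue points at least 2-fold higher on the stomach array, with most genes, Sox2 among them, between the dotted lines; levels under about the lowest one well above background are shown as read and count only as bounds.

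Genes near the threshold show how little separates the 2 sides of it. Map7, Rab11fip5 and Pcolce were the last genes inside on the esophagus side, with differences of 1.0012, 1.0014 and 1.0014, and Arg2, Sowahd and Tfcp2 lay just outside with 0.9998, 0.9994 and 0.9961. On the stomach side Sfr1 and Efhb were just inside with -1.0009 and -1.0011, Olfr805 had a bound of -1.0008 because it was not well above background in esophagus, and Tulp2, Ina and Igdcc3 were just outside with -0.9999, -0.9984 and -0.9980.

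The markers of the 2 organs followed their labels. All 5 esophagus markers were measured and 4 of them were at least 2-fold higher on the esophagus array, and all 6 stomach markers were measured and 5 of them were at least 2-fold higher on the stomach array. Trp63, the master regulator of stratified epithelia, was at 0.31 on the esophagus array and -2.15 on the stomach array, a difference of 5.48-fold. Pax9, a paired-box factor of the pharyngeal and esophageal endoderm, was at -0.67 on the esophagus array and -3.602 on the stomach array (7.64-fold). The basal keratins Krt5 and Krt15 differed by 3.65-fold and 3.13-fold. Sox2 was the esophagus marker under 2-fold, at 1.09 on the esophagus array and 0.63 on the stomach array. On the other side Barx1 was at 0.92 on the esophagus array and 4.49 on the stomach array, 11.9-fold higher in stomach. Six2, a homeobox factor of the gastric mesenchyme, was at -2.36 on the esophagus array and -0.07 on the stomach array (4.88-fold), and the LIM factor Isl1 at 0.36 on the esophagus array and 2.13 on the stomach array (3.43-fold). Pdx1, which marks the antrum, duodenum and pancreas, was well above background in stomach only, at least 4.29-fold higher there. Gata4, at -3.18 on the esophagus array and -2.75 on the stomach array, was the stomach marker under 2-fold.

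Over the wider lists, the esophagus and stratified epithelium list had 12 genes measured, 7 higher on the esophagus array, 3 higher on the stomach array and a median difference of 1.43, against -0.15 over all genes. Anxa8, an annexin of squamous epithelia, was at 2.13 against -0.69 (7.09-fold), and Perp, a desmosomal protein and p63 target, at 2.34 against 0.14 (4.605-fold). Krt14, the usual partner of Krt5, was dim on both arrays and level between them, at -3.76 against -3.67. The 3 genes on the stomach side were Pitx1, a homeobox factor, at 4.71 against 6.29, the Kruppel-like factor Klf5 at 0.76 against 1.88, and the zinc finger gene Bnc1 at -1.695 against 0.02. The stomach list had 14 genes measured, 7 higher in stomach and 2 in esophagus, with a median of -0.96. The 2 were Gata6 (2.67-fold by its brightest probe) and the Wnt antagonist Sfrp2 (4.12-fold). The other probes of Gata6 gave differences of 0.65 and 0.36, under 2-fold.

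Muscle genes gave the largest differences on the esophagus array. Of the 20 genes of largest fold on that side, most encode sarcomere proteins or other proteins of striated muscle. Csrp3, a muscle LIM protein of the Z-disc, was at 1.57 on the esophagus array and -7.43 on the stomach array, where it was not well above background, so its fold was at least 162-fold. Mybpc3, which encodes cardiac myosin-binding protein C, was at 3.24 on the esophagus array and -3.92 on the stomach array (143-fold). Myh6, the atrial myosin heavy chain, was at 2.04 on the esophagus array and -4.53 on the stomach array (95.1-fold). Among other cardiac genes, the atrial light chain Myl7 was at 6.06 against 0.23 (57.1-fold), the troponin T gene Tnnt2 at 3.54 against -2.24 (55.2-fold), and the natriuretic peptide gene Nppa at 1.15 against -4.34 (44.99-fold). Sln, the atrial sarcolipin, differed by at least 98.9-fold, the mitochondrial subunit gene Cox6a2 by 93.9-fold and the ankyrin-repeat gene Ankrd1 by at least 58.5-fold.

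Of 19 heart genes measured, 18 were at least 2-fold higher on the esophagus array, 0 were higher on the stomach array, and the median difference was 5.07, or 3.22 with normexp background correction. Nppb, a second natriuretic peptide gene, was the exception by its brightest probe, at -3.93 on the esophagus array and -4.15 on the stomach array, while its other probe gave a difference of at least 1.37. Summed over the list on the linear scale, relative to the 75th percentile, the level was 146.6 on the esophagus array and 4.20 on the stomach array. Bright probes such as that of Myl7 weigh most in this sum. On the stomach array 15 of the 19 genes were still well above background. In whole-organ RNA, more cells of a type and more RNA per cell cannot be told apart. The part that heart tissue may have in the other differences was not tested. Of the 783 genes higher on the esophagus array, 755 are outside the heart and skeletal muscle lists, as are 193 of the 218 at 4-fold; these still include striated muscle genes that the lists do not hold, such as Sln, Cox6a2 and Ankrd1.

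Skeletal muscle genes pointed the same way, with 10 of 13 measured genes higher on the esophagus array, 0 on the stomach array and a median of 2.12, or 0.65 with normexp. Myog, the myogenic factor of differentiating myoblasts, was at 0.29 on the esophagus array and -4.91 on the stomach array (36.6-fold), and Myod1, which commits cells to the muscle lineage, at -2.31 on the esophagus array and -4.88 on the stomach array (5.94-fold). Pax7, a marker of muscle progenitors, was at -2.497 against -4.62 (4.34-fold), and Myl1, an embryonic and fast-fibre light chain, at 2.57 against -2.89 (43.7-fold). The myosin heavy chain genes are close paralogs, and their probes may share signal. Members outside this pattern were Mymk, needed for myoblast fusion, at -2.199 against -1.77, the fast troponin gene Tnni2 at 0.03 against 0.78 and Tnnt3 at -2.37 against -2.91.

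Smooth muscle genes differed less, with 7 of 12 measured genes higher on the esophagus array and a median of 1.27. Myh11, the smooth muscle myosin heavy chain, was at 1.34 on the esophagus array and -1.56 on the stomach array (7.44-fold). Calponin, from Cnn1, was at 4.82 against 2.38 (5.404-fold), and transgelin, from Tagln, at 4.83 against 2.91 (3.78-fold). Acta2, the smooth muscle actin, was under 2-fold apart by its brightest probe, at 5.94 against 5.49, whereas its other 2 probes gave differences of 2.66 (5.87 against 3.21) and 3.11 (0.17 against -2.94), so its probes disagree in size. The coactivator Myocd, at 3.13 against 2.11, was just past 2-fold, and Itga8 at 1.61 against 2.08 pointed to stomach.

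**Figure D2:**
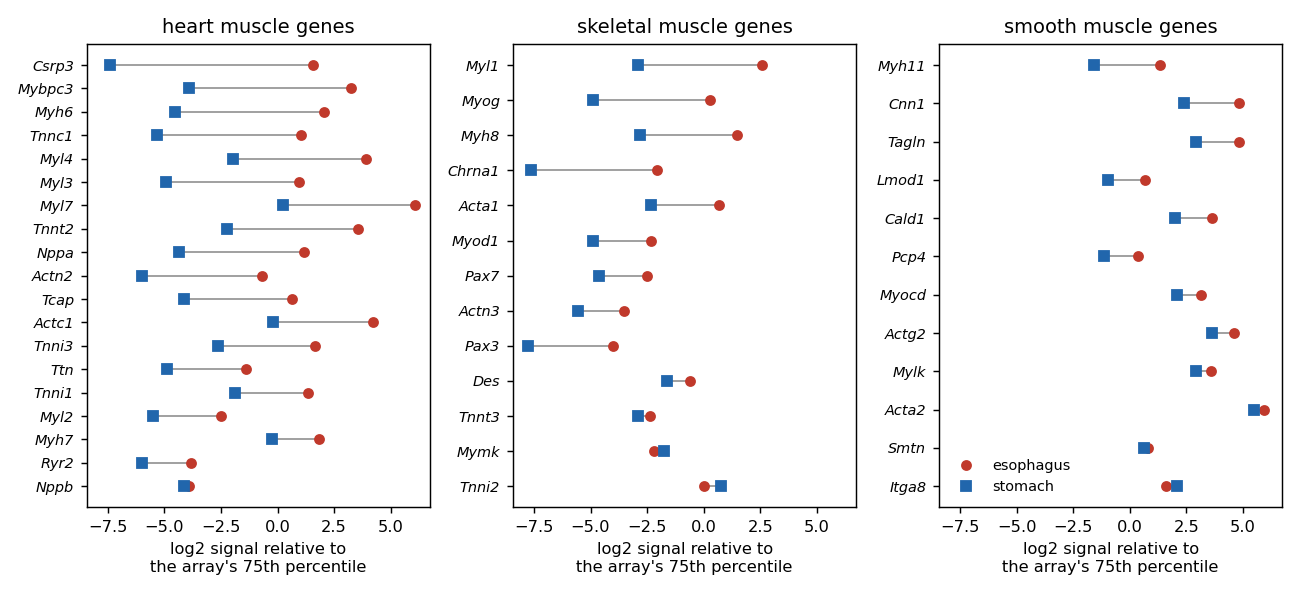
Levels of the measured heart, skeletal and smooth muscle genes on the esophagus array (red circles) and the stomach array (blue squares), as log2 signal over the array's 75th percentile, with genes ordered by their difference. In the heart panel 18 of 19 pairs are at least 2-fold apart and Nppb is not, in the skeletal panel Mymk and Tnni2 point the other way, and the smooth muscle pairs lie closer together. Points under the lowest level well above background are shown as read and count only as bounds.

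The promoters of these genes were searched for 11 motifs on both strands, of which 9 are given here, in the 250 bases before the start of each of 32851 RefSeq windows (27025 genes, GRCm38.p6); motifs and the promoters shown were chosen after values had been seen. A CArG box, the site bound by serum response factor, was in 1.47% of all windows and 1.28% of those of measured genes, in 13 of 209 windows (6.22%) of genes at least 4-fold higher on the esophagus array and in 1 of 80 (1.25%) of those at least 4-fold higher on the stomach array. A MEF2 site, bound by the MEF2 family of muscle regulators, was in 2.92% of all windows, 1.74% of those of measured genes, and 8.61% and 5.0% on the esophagus and stomach sides, and no window held a MEF2 site that overlapped a CArG box. In the same order the GC-rich motif GGGCGG was in 32.7%, 54.0%, 39.2% and 32.5%. The sets of windows were not matched for base composition, and its part in the shares of any motif was not tested. The CArG box was in the promoters of 3 of the 17 heart genes with a window, and they are printed to show where it lies: Actc1, cardiac actin, with the box 47 to 38 bases before the start (chr2:114052876-114053125, minus strand); Myl7, 61 to 52 bases before (chr11:5898783-5899032, minus strand); and Myl3, 85 to 76 bases before (chr9:110763428-110763677, plus strand). Capitals mark the box, and the sequences run 5′ to 3′ on the gene's strand.
Actc1: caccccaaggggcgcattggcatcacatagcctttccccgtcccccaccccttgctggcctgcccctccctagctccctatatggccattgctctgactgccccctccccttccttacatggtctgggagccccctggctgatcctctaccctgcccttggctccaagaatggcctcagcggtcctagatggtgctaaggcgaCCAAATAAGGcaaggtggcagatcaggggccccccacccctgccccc
Myl7: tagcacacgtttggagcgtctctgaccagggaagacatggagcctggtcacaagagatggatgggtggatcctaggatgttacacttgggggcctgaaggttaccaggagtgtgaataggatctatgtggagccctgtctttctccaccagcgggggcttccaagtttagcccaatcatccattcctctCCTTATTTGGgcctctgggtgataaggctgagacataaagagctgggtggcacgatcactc
Myl3: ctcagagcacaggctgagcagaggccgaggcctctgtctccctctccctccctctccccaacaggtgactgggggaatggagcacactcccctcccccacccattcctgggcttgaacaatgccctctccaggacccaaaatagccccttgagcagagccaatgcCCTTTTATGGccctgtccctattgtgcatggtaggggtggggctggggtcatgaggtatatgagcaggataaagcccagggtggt
Actc1 was at 4.204 on the esophagus array and -0.19 on the stomach array (21.00-fold), and Myl3, which encodes a ventricular light chain, at 0.93 on the esophagus array and -4.92 on the stomach array (57.6-fold).

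Genes of the trachea and lung primordium were the next group. Of 19 measured, 10 were at least 2-fold higher on the esophagus array and 1 on the stomach array, with a median of 2.08. That median was 0.48 over genes well above background on both arrays and 0.38 with normexp background correction. Nkx2-1, which specifies the respiratory endoderm, was at -1.103 on the esophagus array and -7.74 on the stomach array, not well above background there (at least 25.5-fold). Sftpc, the gene of surfactant protein C, was at -1.74 on the esophagus array and -6.72 on the stomach array (at least 16.3-fold). Wnt2, a mesenchymal ligand that induces Nkx2-1, was at 1.76 on the esophagus array and -2.32 on the stomach array (16.9-fold). All 4 respiratory markers, Nkx2-1, Sftpc, Wnt2 and Tbx4, were higher on the esophagus array. Tbx5, a T-box factor of the heart and the lung mesenchyme, was at 2.46 against -1.49 (15.5-fold), and the Wnt activator Rspo2 at 0.000 against -2.404 (5.29-fold). Foxp1, Foxp2, Foxp4, Id2, Wnt2b, Etv5, Tbx2 and Tbx3, also on this list, were within 2-fold. Fgf10, the ligand that drives branching, was on the stomach side at -1.33 against 0.26 (3.005-fold).

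Summed over the list, the level was 62.3 on the esophagus array and 44.9 on the stomach array, a ratio of 1.39. Bright probes weigh most in this sum, among them those of Id2 (3.90 against 4.18) and Foxp1 (3.45 against 3.41). The part of adjacent trachea in the esophagus differences was not tested.

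Pharyngeal genes were also on the esophagus side: 6 of 10 measured were higher on the esophagus array, 0 on the stomach array, with a median of 1.98, which was 0.74 over genes well above background on both arrays and 0.44 with normexp. Tbx1, the T-box factor of the pharyngeal apparatus, was at 3.66 on the esophagus array and -0.87 on the stomach array (23.1-fold), and Pax1, a marker of the pharyngeal pouches, at -1.71 on the esophagus array and -7.68 on the stomach array (at least 16.7-fold). Foxe1, which is needed for the thyroid, was at -3.02 against -5.38 (at least 5.12-fold). Summed, the list read 15.9 on the esophagus array and 1.72 on the stomach array, and its brightest probe, that of Tbx1, weighs most in this sum. Of the Eya transcriptional cofactors, Eya2 (4.0003-fold) and Eya4 (3.39-fold), not on this list, were on the same side. Eya1, which is on the list, and Eya3 were within 2-fold, at differences of 0.65 and 0.04.

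Several families of patterning factors lay on the esophagus side. The T-box list had 9 genes measured, 5 higher on the esophagus array and 0 on the stomach array. Of these, Tbx4 and Tbx5 were also counted in the trachea and lung list, and Tbx1 in the pharyngeal list. Tbx18, a factor of the epicardium and other mesenchyme, was at -0.41 on the esophagus array and -4.89 on the stomach array (22.2-fold), and Tbx20, a cardiac factor, at -0.27 on the esophagus array and -3.17 on the stomach array (7.44-fold). Tbx2 and Tbx3 were within 2-fold, at 1.65 against 1.24 and 2.94 against 2.76. Of 6 Iroquois homeobox genes, 4 were higher on the esophagus array and 0 on the stomach array, led by Irx1 at 2.899 on the esophagus array and -2.28 on the stomach array (36.3-fold) and Irx2 at 0.65 on the esophagus array and -2.23 on the stomach array (7.37-fold). The probes of Irx2 gave differences of 2.88, 3.15 and at least 2.57. Irx3 (at least 4.24-fold) and Irx5 (2.29-fold) completed the 4, and Irx4 and Irx6 did not pass. Irx1, Irx2 and Irx3 were also counted in the trachea and lung list, so the counts of these lists are not separate results.

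Forkhead genes of the mesenchyme differed gene by gene. Foxd1, a stromal factor best known from the kidney, was at 1.98 on the esophagus array and -5.08 on the stomach array (134-fold), and its other probe gave a difference of at least 6.34. Foxc1 and Foxc2, factors of paraxial and vascular mesenchyme, were at 2.27 against -0.33 (6.05-fold) and 0.17 against -2.33 (5.64-fold). The gut mesenchyme factors Foxf1 and Foxf2 were within 2-fold, at 0.01 against 0.41 and 2.92 against 2.23. In all, 3 of the 9 measured forkhead genes were higher on the esophagus array and 0 on the stomach array.

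The list of head, limb and somite mesenchyme was divided, 8 higher on the esophagus array and 5 on the stomach array of 19 measured. Prrx1, a paired-related homeobox gene of mesenchyme, was at 3.99 on the esophagus array and 0.12 on the stomach array (14.6-fold), and 3 of its probes gave differences of 3.09 to 4.03, with at least 3.66 for the other probe. Twist1, a basic helix-loop-helix factor, was at 1.23 against -0.98 (4.61-fold). Lhx6, a LIM factor of the jaw mesenchyme, was at -0.81 against -3.97 (8.91-fold). The genes on the stomach side included Pitx1, Msx1 (2.62-fold), Dlx2 (2.25-fold) and Tcf15 (2.13-fold).

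Matrix genes were tilted to the esophagus, 9 higher and 0 lower of 17 measured, with a median of 1.01. Tenascin C, from Tnc, was at 1.16 on the esophagus array and -1.05 on the stomach array (4.63-fold), while its other probe gave a difference of 0.84. Versican, from Vcan, was at 2.95 on the esophagus array and 1.34 on the stomach array (3.05-fold). Collagen 1, from Col1a1, was at 6.003 on the esophagus array and 4.58 on the stomach array (2.68-fold). Col3a1 and Col5a1 were level, at 5.02 against 4.84 and 2.699 against 2.56. Secreted modulators of Wnt signalling had 6 of 13 higher on the esophagus array and 0 on the stomach array: Sostdc1 (6.02-fold), Rspo2, Sfrp2, Frzb (2.97-fold), Notum (2.39-fold) and Wif1 (2.31-fold). Rspo2 was also counted in the trachea and lung list and Sfrp2 in the stomach list. Of 17 receptors, 0 were higher on the esophagus array and 1 (5.88%) on the stomach array, against 5.69% and 4.23% of all genes. That receptor was Fzd5, at -2.12 against 0.69 (7.04-fold). The Wnt target Axin2 was at -1.47 against -1.78 and Lef1, which is both a mediator and a target, at 0.19 against -1.09 (2.42-fold).

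Liver genes were higher on the esophagus array too, 7 of 11 with 0 on the stomach array and a median of 1.30, or 0.52 with normexp. Albumin, from Alb, was at -0.36 on the esophagus array and -2.39 on the stomach array (4.07-fold), and alpha-fetoprotein, from Afp, at 3.12 on the esophagus array and 1.51 on the stomach array (3.04-fold). Apoa1 was at -3.92 against -3.28 and pointed the other way. The list summed to 13.5 on the esophagus array and 6.54 on the stomach array, and its brightest probe on both arrays, that of Afp, weighs most in this sum.

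Differences among the Hox genes were in the B cluster for the most part. Of 9 measured Hox B genes 6 were higher on the stomach array and 0 on the esophagus array, with a median of -1.81. Hoxb8 was at -3.64 on the esophagus array and 0.68 on the stomach array (20.03-fold), Hoxb7 at -1.598 on the esophagus array and 2.57 on the stomach array (17.99-fold) and Hoxb6 at -0.297 on the esophagus array and 2.41 on the stomach array (6.54-fold). Hoxb5 (2.61-fold) and Hoxb9 (3.51-fold) were smaller differences, so Hoxb5 to Hoxb9 formed an unbroken run of 5 neighbouring genes. Nearer the other end of the cluster Hoxb2, Hoxb3 and Hoxb4 differed by -0.48, -0.102 and 0.24. Hoxb1, the most anterior gene, stood apart from its neighbours at -5.22 on the esophagus array and -1.56 on the stomach array (12.6-fold).

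In the A cluster 2 of 8 measured genes were higher on the stomach array. Hoxa7 was at -0.55 on the esophagus array and 4.42 on the stomach array (31.4-fold) and Hoxa6 at -3.01 on the esophagus array and -1.37 on the stomach array (3.13-fold), while Hoxa5 and Hoxa9 on either side of them differed by -0.47 and -0.11. Hoxc9, dim and at -3.75 against -7.94, was the only measured gene of the C cluster past 2-fold, with 3 measured, and was on the esophagus side (at least 4.06-fold). None of 4 measured genes of the D cluster passed.

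**Figure D3:**
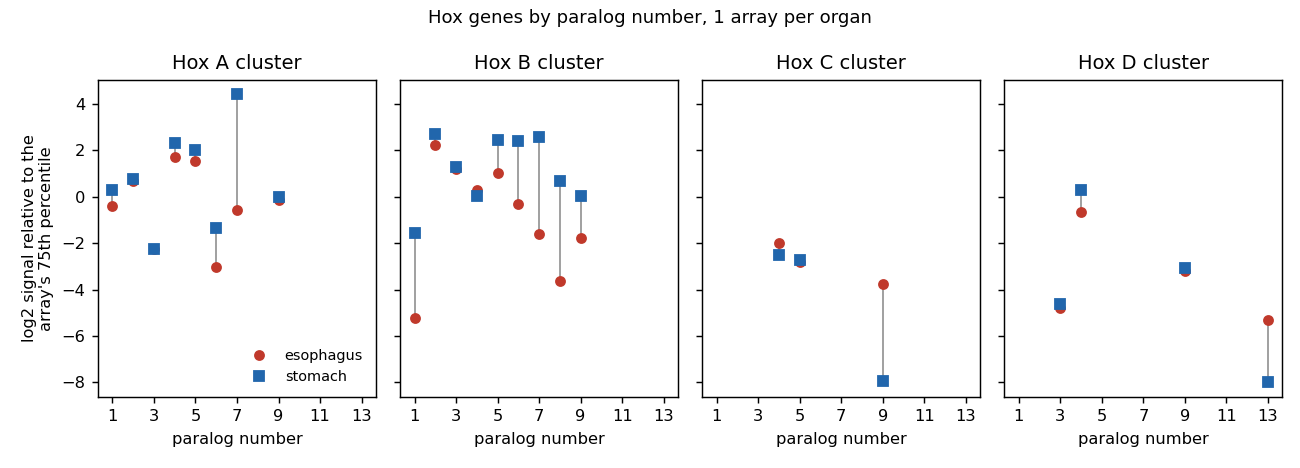
Levels of the measured Hox genes by paralog number in each of the 4 clusters, on the esophagus array (red circles) and the stomach array (blue squares), as log2 signal over the array's 75th percentile. Among genes well above background on both arrays, the 2 levels part most at Hoxa7, Hoxb1 and Hoxb6 to Hoxb8 and lie close together at Hoxb2 to Hoxb4. The lower points of Hoxc9 and Hoxd13 are below background. They are shown as read and count only as bounds, so the differences used are smaller than the gaps drawn.

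Other homeobox genes were split. Nkx6-2, a homeobox factor, was at -5.93 on the esophagus array and 2.304 on the stomach array, not well above background on the former (at least 266-fold), while its relative Nkx6-1, a factor of the pancreas and the neural tube, was at 2.58 on the esophagus array and 1.13 on the stomach array (2.74-fold). Nkx2-3, a factor of gut mesenchyme and spleen, was at -3.83 on the esophagus array and -0.799 on the stomach array (8.196-fold) and Nkx2-5, a factor of the heart and of the pyloric mesenchyme, at -0.09 on the esophagus array and 1.05 on the stomach array (2.203-fold). In all, 5 of 8 measured Nkx genes were higher on the stomach array and 2 on the esophagus array. The 16 measured Sox genes held 1 past 2-fold (6.25%, against 9.92% of all genes), Sox9 at 1.55 against 0.49, on the esophagus side.

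Endoderm and intestine genes were more often higher on the stomach array than on the esophagus array. Of 18 endoderm regulators 7 were higher on the stomach array and 2 on the esophagus array, and of 12 intestine genes 7 and 2, with a median of -1.22, or -0.40 with normexp. Hnf4a, a nuclear receptor of digestive epithelium, was at -6.54 on the esophagus array and -3.31 on the stomach array (at least 5.42-fold). Onecut1 and Onecut2, cut-homeobox factors of the liver and pancreas, differed by 6.604-fold and 5.85-fold. The keratins Krt8 and Krt18 of simple epithelium were bright on both arrays, at 3.39 against 4.94 and 4.22 against 5.94. Cdx2, the intestinal homeobox factor, was at -8.01 on the esophagus array and -4.31 on the stomach array (at least 2.72-fold), and Vil1, the gene of the brush border protein villin, at -5.53 on the esophagus array and -2.79 on the stomach array (6.698-fold). Foxa2, Cdh1 and Epcam, broad markers of endoderm, were within 2-fold, at differences of 0.35, 0.16 and -0.68.

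The 20 genes of largest fold on the stomach side were of mixed roles. Nepn, which encodes the small leucine-rich proteoglycan nephrocan, was at -7.504 on the esophagus array and 3.24 on the stomach array (at least 510.3-fold). Syt10, a synaptotagmin, was at -4.43 on the esophagus array and 3.25 on the stomach array (205-fold). Ihh, the hedgehog ligand of the gut endoderm, was at -5.23 on the esophagus array and -0.61 on the stomach array (24.7-fold), whereas Shh was at -0.85 against -1.36, and the receptor and target Ptch1 at 0.91 against 0.78. Agr2, a protein disulfide isomerase of mucous cells, was at -4.16 against 0.17 (20.2-fold), and Spdef, a factor of goblet cells, at -4.65 against -1.07 (11.95-fold). Adra2a, the alpha-2A adrenergic receptor, was at -1.61 against 2.87 (22.2-fold), with its 3 probes between -4.62 and -3.200. Cartpt, a neuropeptide gene, was at -1.83 against 2.02 (14.4-fold) and Colec10, a collectin, at -1.46 against 2.55 (16.1-fold). Tspan8, a tetraspanin of digestive epithelium, was at -4.47 against -0.57 (14.9-fold) and the actin-severing Scin at -7.74 against -2.23 (at least 11.46-fold).

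The motif TGTTTAC, a forkhead core, was in 3.17% of all windows and 2.24% of those of measured genes, in 7 of 80 (8.75%) windows of genes at least 4-fold higher on the stomach array and in 3 of 209 (1.44%) on the esophagus side. For AGATAA the share was 13.8% on the stomach side and 9.57% on the esophagus side, against 6.54% for measured genes and 9.99% of all windows. In the same order it was 12.5%, 13.4%, 10.7% and 12.6% for CAAAGT, 1.25%, 0.478%, 0.366% and 0.384% for CAAAGTCCA, and 66.2%, 71.8%, 59.2% and 66.2% for CANNTG. For CATTCC it was 11.2%, 12.4%, 11.0% and 12.6%, and for GGGCGG 32.5%, 39.2%, 54.0% and 32.7%, below the measured genes on both sides. CAAAGT lies inside CAAAGTCCA. The genes with TGTTTAC on the stomach side include the neighbouring paralogs Akr1c12 and Akr1c13, whose promoters were not compared with each other. Of the 7 genes with TGTTTAC, 3 are printed with the match in capitals, as examples of where it lies: Nepn, 158 to 152 bases before the start (chr10:52391358-52391607, plus strand); Tspan8, 18 to 12 bases before (chr10:115817034-115817283, plus strand); and Akr1c12, 25 to 19 bases before (chr13:4279400-4279649, minus strand).
Nepn: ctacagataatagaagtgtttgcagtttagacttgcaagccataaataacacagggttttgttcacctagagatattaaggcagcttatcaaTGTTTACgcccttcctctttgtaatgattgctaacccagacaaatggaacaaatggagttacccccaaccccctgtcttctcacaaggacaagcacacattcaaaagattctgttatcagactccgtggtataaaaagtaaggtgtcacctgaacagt
Tspan8: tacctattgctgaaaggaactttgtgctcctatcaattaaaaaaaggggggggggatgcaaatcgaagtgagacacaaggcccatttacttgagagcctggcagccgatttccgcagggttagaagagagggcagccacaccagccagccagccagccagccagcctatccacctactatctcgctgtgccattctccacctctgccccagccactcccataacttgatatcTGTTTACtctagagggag
Akr1c12: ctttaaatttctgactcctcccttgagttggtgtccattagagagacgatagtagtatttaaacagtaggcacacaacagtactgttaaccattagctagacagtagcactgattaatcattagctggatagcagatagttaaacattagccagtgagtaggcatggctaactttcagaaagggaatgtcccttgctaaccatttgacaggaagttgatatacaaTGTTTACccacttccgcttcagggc
These are descriptions of letters in the window, and binding was not measured.

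Neural crest and enteric neuron genes were higher on the stomach array in 13 of 22 and on the esophagus array in 1, with a median of -1.32, or -0.83 with normexp. Ret, the receptor of the GDNF family that the enteric crest needs, was at -4.61 on the esophagus array and -2.67 on the stomach array (3.86-fold), and its ligand Gdnf at -3.605 on the esophagus array and -1.67 on the stomach array (3.83-fold). Phox2a, an autonomic neuron factor, was at -2.56 on the esophagus array and -0.89 on the stomach array (3.18-fold). Hand2, a basic helix-loop-helix factor of enteric neurons, was at -0.202 against 1.61 (3.52-fold), and Tubb3, the neuronal tubulin, at -0.04 against 1.52 (2.96-fold). Ednrb, the endothelin receptor of crest cells, was the one on the esophagus side, at 3.45 against 2.42 (2.04-fold). Its other probe gave a difference of 0.78, under 2-fold. Erbb3, a neuregulin receptor of crest cells, was within 2-fold, at -3.29 against -3.98.

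Spleen and mesothelium genes included 6 higher on the stomach array and 1 on the esophagus array of 13. Tlx1, a factor of spleen development, was at -6.28 on the esophagus array and -1.71 on the stomach array (at least 16.5-fold) and mesothelin, from Msln, at -4.16 on the esophagus array and -1.72 on the stomach array (5.396-fold). Wt1, a factor of mesothelium, was at 0.46 against 1.05, within 2-fold. Osr1 was on the esophagus side at 4.299 against 3.26 by its brightest probe, while its other probe gave a difference of 0.52, under 2-fold. Of 14 FGF receptors and response genes, 3 were higher on the stomach array and 0 on the esophagus array, namely Etv4 (3.36-fold), Etv1 (2.71-fold) and Il17rd (2.29-fold). The other probes of Il17rd gave a difference of -0.09 and a bound of -0.75.

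Most blood, vessel and immune genes were within 2-fold, and so were the cell-cycle and reference genes. None of 13 erythroid genes differed by 2-fold, with a median of 0.02 and globin genes such as Hbb-y at 6.88 against 7.64. Endothelial genes had a median of 0.31, with 12 of 14 above 0, against a median of -0.15 over all genes. Of the 14 endothelial genes 2 were at least 2-fold higher on the esophagus array, Erg (3.84-fold) and Tek (3.01-fold). Of 12 macrophage genes 1 was, Lyve1 at -1.501 against -3.804 (4.94-fold), which also marks lymphatic endothelium. None of 19 cell-cycle genes passed, with a median of -0.40 (-0.60 centred on the median, -0.23 with quantile normalization) and 17 of the 19 lower on the esophagus array, and none of 10 reference genes passed. For scale, 9.92% of all genes passed. Of genes with a mean level over 2, 1.5% passed on the esophagus side and 0.766% on the stomach side. Xist, the RNA that coats the inactive X chromosome, was at 0.42 against -1.07 (2.81-fold) and the Y-linked Eif2s3y at -1.82 against -0.65 (2.25-fold), and both were above background on both arrays. The other Y-linked genes listed, Ddx3y, Kdm5d and Uty, were within 2-fold, at differences of -0.99, -0.50 and -0.23. The other probe of Uty gave 0.07.

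**Figure D4:**
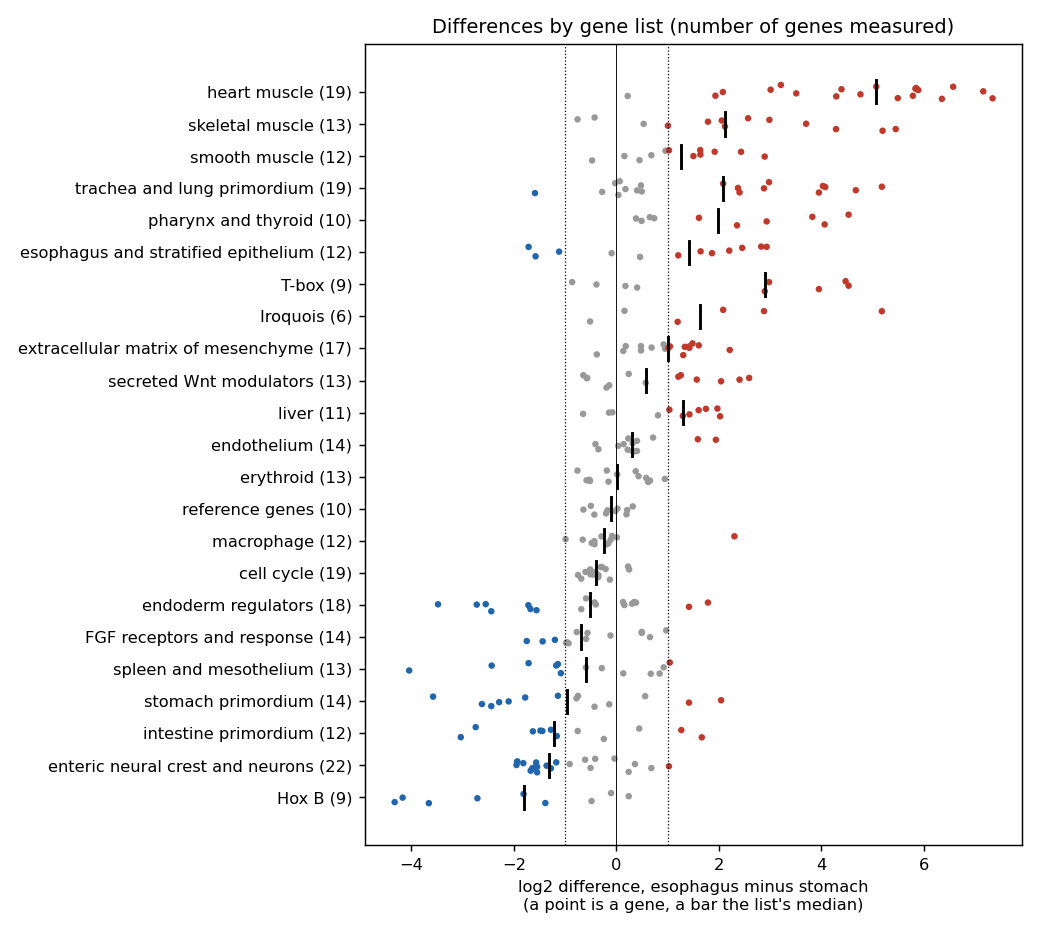
Log2 difference, esophagus minus stomach, for the measured genes of 23 lists, with the number measured in brackets; a point is a gene (red at least 2-fold higher in esophagus, blue at least 2-fold higher in stomach, grey neither), the bar is the list's median and the dotted lines mark 2-fold. Heart genes have a median of 5.07, the Hox B genes one of -1.81, and the erythroid, reference and cell-cycle lists stay inside the dotted lines.

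Genes next to each other on a chromosome, with 3 or more measured neighbours in a row on the same side, formed 10 runs on the esophagus side and 9 on the stomach side. Besides the Hox B run these included Akr1c18, Akr1c13, Akr1c19 and Akr1c12, aldo-keto reductases, with folds of at least 3.39-fold, 13.8-fold, 7.51-fold and at least 15.7-fold, where the near-identical copies may share signal. The trefoil factors Tff3 and Tff1, with Tmprss3, were higher on the stomach array by at least 2.79-fold, at least 6.16-fold and 6.01-fold, and the nicotinic receptor genes Chrna5, Chrna3 and Chrnb4 by 3.34-fold, at least 2.25-fold and at least 3.66-fold. On the esophagus side the leucine-rich proteoglycan genes Dcn, Lum and Kera formed a run, at 2.68-fold, 2.799-fold and 6.69-fold, as did the semaphorins Sema3d, Sema3a and Sema3e, guidance cues for axons and vessels, at 2.25-fold, 2.07-fold and 6.27-fold.

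Some genes were read by several probes. Of the 1365 genes, 334 had 2 or more measured probes, and in 305 of them (91.3%) all probes pointed the same way. This was so for 208 of 225 on the esophagus side and 97 of 109 on the stomach side. Among genes under 2-fold apart with 2 or more measured probes, all probes pointed the same way in 2613 of 4555 (57.4%). The 1365 genes were chosen by their brightest probe, so these shares are a description. All probes passed 2-fold in 121 genes on the esophagus side and 47 on the stomach side. At 4-fold, all probes pointed the same way in 57 of 59 genes on the esophagus side and 19 of 20 on the stomach side. The remaining 558 and 473 genes had 1 measured probe.

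Where 3 or more probes agreed, Mia, a secreted cartilage and melanoma protein, differed by 2.88 to 3.27, Sema3e by 2.65 to 3.44 and Thbs1, thrombospondin 1, by 1.81 to 2.19. On the stomach side the 2 probes of Onecut2 measured on both arrays gave -2.55 and -2.45, and those of St8sia3, a sialyltransferase, -3.41 and -2.96. In both genes the other probe was not well above background in esophagus. The 2 probes of Myl3, both measured on both arrays, gave 0.56 and 5.85. Those of Myh4 gave at least 0.31 and at least 5.38, since neither was well above background in stomach, so how far they disagree was not measured. Ttn, the giant sarcomere protein, had 8 probes, all on the esophagus side: 1 gave 3.51, and the other 7 were bounds, from at least 0.74 to at least 5.45. Grn, progranulin, had 1 bright probe at -3.801 and another at 0.28, so its place among the stomach genes rests on 1 probe. The probes of Svop also pointed in opposite directions, at -2.19 and 1.199.

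**Figure D5:**
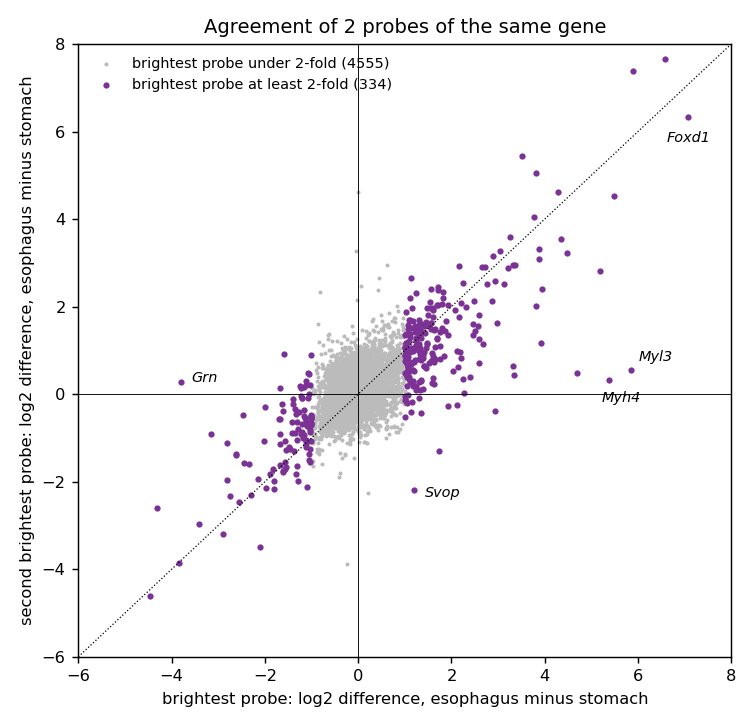
Log2 difference, esophagus minus stomach, of the second brightest probe (y axis) against the brightest probe (x axis) of 4889 genes with 2 or more measured probes; a point is a gene, purple where the brightest probe is at least 2-fold apart (334 genes) and grey otherwise, with bounds plotted at their bound, and the dotted line marks equal differences. The second probe had the same sign in 307 of the 334 genes, and Grn and Svop are among those where it did not.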

How the data were processed

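Total RNA of the esophagus and the stomach was hybridised in 1 colour to 1 array each, both on 1 slide. Agilent Feature Extraction 10.5.1.1 produced the values, per the file headers, on array design 014868 (build mm8), and the deposited processed signals are spot intensity values, background-subtracted and detrended within an array. The authors' deposited series table holds log2 values that match log2 signal minus the 75th percentile (r of 0.999978 and 0.999961, medians of -2.97 and -3.17 for esophagus and stomach); how it was made is not given in the sources used here, and it served as an alternative.

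Spots that the software marked as outliers (111 and 70) were dropped, copies of a probe were averaged, and each array's 75th percentile over the 41137 probes kept was subtracted after log2. That percentile was taken over probes after counts over spots had been seen. Accessions of 24356 probes (59.2%) matched 1 symbol of the RefSeq table of GRCm38.p6, used for names and gene order; 16781 had none. Of 17007 genes with a symbol, 13756 were well above background on at least 1 array, 12927 on both. A gene's value was its brightest probe. No spot was saturated. For normexp the median spot signal stood in for the mean signal, which is not used here.

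The members and the 44 lists (584 genes, 501 measured) were chosen with earlier results of these data known, and the tolerance of 0.57, the minimum of 0.5 for a list to count as turned and the 10 lists treated as main results were set after values were seen. Some genes are on several lists, so the counts of different lists overlap. The genes named are the 20 of largest fold each way whose probes agree, list members, the 3 nearest the threshold on each side, the 10 whose probes disagree most and the 10 of largest fold with 3 or more probes; genes of the neighbour runs were named after their values were seen. Some genes that this rule names, and some motifs, are not reported here. The 2 value columns of the other organs were not used. No test was made, since 1 array of each organ was analysed. Calculations used Python 3.11.15, numpy 2.4.6, pandas 2.3.3, scipy 1.17.1 and matplotlib 3.10.9, and R 4.3.3 with limma 3.58.1, and were tested on simulated data.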

Additional observations from a re-analysis of the deposited data

How the results depend on the processing

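Of the 9 alternatives, normexp background correction with an offset of 50 moved the most: 276 genes were at least 2-fold higher on the esophagus array and 166 on the stomach array, and 61 and 28 at 4-fold. Under it the list medians were 3.22 for heart, 0.65 for skeletal muscle, 0.38 for trachea and lung, 0.44 for pharynx and thyroid and -0.40 for intestine. Centring on the median moved the stomach count at 2-fold to 962 and the median of all genes from -0.15 to -0.35. With no filter and no bound, the stomach count was 992, the 4-fold counts 352 and 188, the share of genes whose probes agree 74.6%, and the medians -1.81 for intestine and 0.74 for pharynx and thyroid. Keeping only genes well above background on both arrays gave medians of 0.48 for trachea and lung and 0.74 for pharynx and thyroid, and genes below background on 1 array have no value there. The cause was not tested. Of the recomputed counts of genes 28 stayed within 1.5 times and 8 did not. Of the list medians 381 moved by less than 0.57, the SD between probes of single genes, and 15 moved further. No list median of at least 0.5 in size changed sign. Centring on the median, or on the 75th percentile of probes well above background on both arrays, adds the same amount to every difference. The median of all genes became -0.35 and -0.08, so no list median could move by 0.57 under either. The deposited table holds nearly the same values as the main setting. Of the genes of largest fold 33 moved under normexp and 7 did not, and of the other listed genes 121 and 389. Svop turned to -0.49 when probes were averaged. No paired analysis was possible because 1 array of each organ was analysed. Dim genes are the least certain, since a signal near background gives a bound only.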

Other observations

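Probes without a gene symbol were not split as the named genes were. Of 9309 such probes measured, 1052 (11.3%) were at least 2-fold higher on the esophagus array and 250 (2.69%) on the stomach array. Among probes of RefSeq genes with a symbol the shares were 5.89% and 3.42%. For the 6840 unnamed probes designed on RIKEN and GenBank mRNA sequences they were 12.6% and 2.56%, with a median difference of 0.23 against -0.08 for the probes with a symbol. The excess on the esophagus side was seen at each level: among the dimmest probes, with a mean level under -4, 18.9% of 3156 unnamed probes and 13.3% of 2708 probes with a symbol were higher on the esophagus array, and among the brightest, over 2, 2.55% of 744 and 1.45% of 3783. The cause was not tested.

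The share of genes at least 2-fold apart depended on brightness. Of 1810 genes with a mean level under -4, 12.4% were higher on the esophagus array and 12.5% on the stomach array. Of 3265 genes with a mean level over 2, the shares were 1.5% and 0.766%.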
